A study of Mus musculus with 12 samples.

Results

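The genotype difference was examined in inflamed ankle joints, between 3 Mmp8-/- and 3 Mmp8+/+ arthritic mice chosen by their sample labels, 6 of the 12 arrays of the series. Mice of the C57BL/6 background, 6 to 8 weeks old, had been used. The study describes them all as male, although 2 of the control arrays did not match that description. Each arthritic mouse received 150 µl of K/BxN serum on day 0 and again on day 2, and its ankle was taken on day 7. K/BxN serum carries autoantibodies that cause arthritis in a recipient within days. The other 6 arrays were from ankles without serum, 3 of each genotype, and serve here to show the level of a gene without arthritis. The Mmp8 deletion is present in all cells from conception. The allele came from a mixed C57BL/6 x 129Sv background and was crossed to C57BL/6 for 12 generations, so that chromosome 9 around Mmp8 may still carry 129Sv sequence. The samples are whole ankles, in which fewer cells of a type and less RNA per cell cannot be told apart. Values are log2 signals after Robust Multichip Average (RMA) normalization, in which a difference of 1 is a 2-fold difference. A feature was called at a false discovery rate (FDR) of 5% over the 21789 array features with 1 gene symbol.

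Mmp8 encodes neutrophil collagenase, a secreted protease that neutrophils store in granules and that cuts fibrillar collagens. It lies in a cluster of matrix metalloproteinase genes, among them those for stromelysin-1 (Mmp3) and macrophage elastase (Mmp12). K/BxN serum arthritis depends on neutrophils, complement, Fc receptors and interleukin-1. An ankle also holds cartilage, bone with marrow, tendon, muscle, fat, nerve and, where it is not fully removed, skin. Skin is covered by epidermis, in which basal keratinocytes with Krt5 and Krt14 turn into suprabasal ones with Krt1 and Krt10 and finally into the cornified layer.

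The arrays of arthritic ankles had similar medians, of 6.98 to 7.08 on the log2 scale. The SD over features was 1.80 on the array of Mmp8-/- mouse 1 and 1.88 to 1.91 on the others. Correlations over genes were 0.982 to 0.985 among Mmp8+/+ arrays, 0.967 to 0.980 among Mmp8-/- arrays and 0.972 to 0.985 between the genotypes. In the arthritic arrays, joint and inflammatory cells had clear signals: 31 of 34 genes of mature neutrophils, 27 of 29 of macrophages, 31 of 32 of synovial fibroblasts, 23 of 31 of chondrocytes and 43 of 50 of skeletal muscle were above the median gene. Of 108 epidermal genes, 19 of the 61 suprabasal and cornified ones and 18 of the 47 basal ones were. One array labelled Mmp8-/- control had an Mmp8 signal of 10.65, and 1 control array of each genotype had Xist signal (10.42 and 10.92) that is not found in male tissue. All 6 arthritic arrays followed their labels for Mmp8 and had no Xist signal. Tests that use control arrays are therefore given with and without the Mmp8-/- control array that has Mmp8 signal.

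The targeted gene had the largest difference. Mmp8 was at 10.21, 10.69 and 10.58 in the Mmp8+/+ arthritic ankles and at 5.54, 4.64 and 4.67 in the Mmp8-/- arthritic ankles. It was lower by a log2 difference of -5.54 (SE 0.255, limma adjusted p = 2.18e-05). No fold is given, since the Mmp8-/- values were at about the level of Xist on the same 6 arrays (4.92 to 5.41), a transcript that male tissue lacks. Control ankles had 10.30, 11.16 and 11.09 in Mmp8+/+ mice, against 4.82 and 5.05 in the Mmp8-/- arrays other than the one at 10.65.

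Besides Mmp8, 2 genes of the outer epidermis were called. Krtdap encodes a small protein secreted by differentiating keratinocytes. Krtdap was at 8.17, 8.68 and 8.58 in Mmp8+/+ arthritic ankles and at 6.50, 6.44 and 7.00 in Mmp8-/- arthritic ankles, a difference of -1.83 (SE 0.210, limma adjusted p = 0.0436). Krt10, the suprabasal keratin, was at 11.24, 11.89 and 11.25 against 9.65, 9.11 and 9.66, a difference of -1.99 (SE 0.230, limma adjusted p = 0.0436). In both genes every Mmp8-/- array was below every Mmp8+/+ array. The 3 called features were 0.0138% of the features tested, all lower in Mmp8-/- ankles, and 0 were called higher (0%). At an unadjusted p under 0.05, 263 features were lower (1.21%) and 270 higher (1.24%), so that the directions were about balanced over the array. Krtdap and Krt10 lost their calls when any 1 of the 6 arrays was left out, with adjusted p from 0.0556 to 0.366 for Krtdap and from 0.134 to 0.294 for Krt10, while Mmp8 kept its call each time. Krt10 also lost its call when control arrays were added to the fit (limma adjusted p = 1 with all 12).

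**Figure D1:**
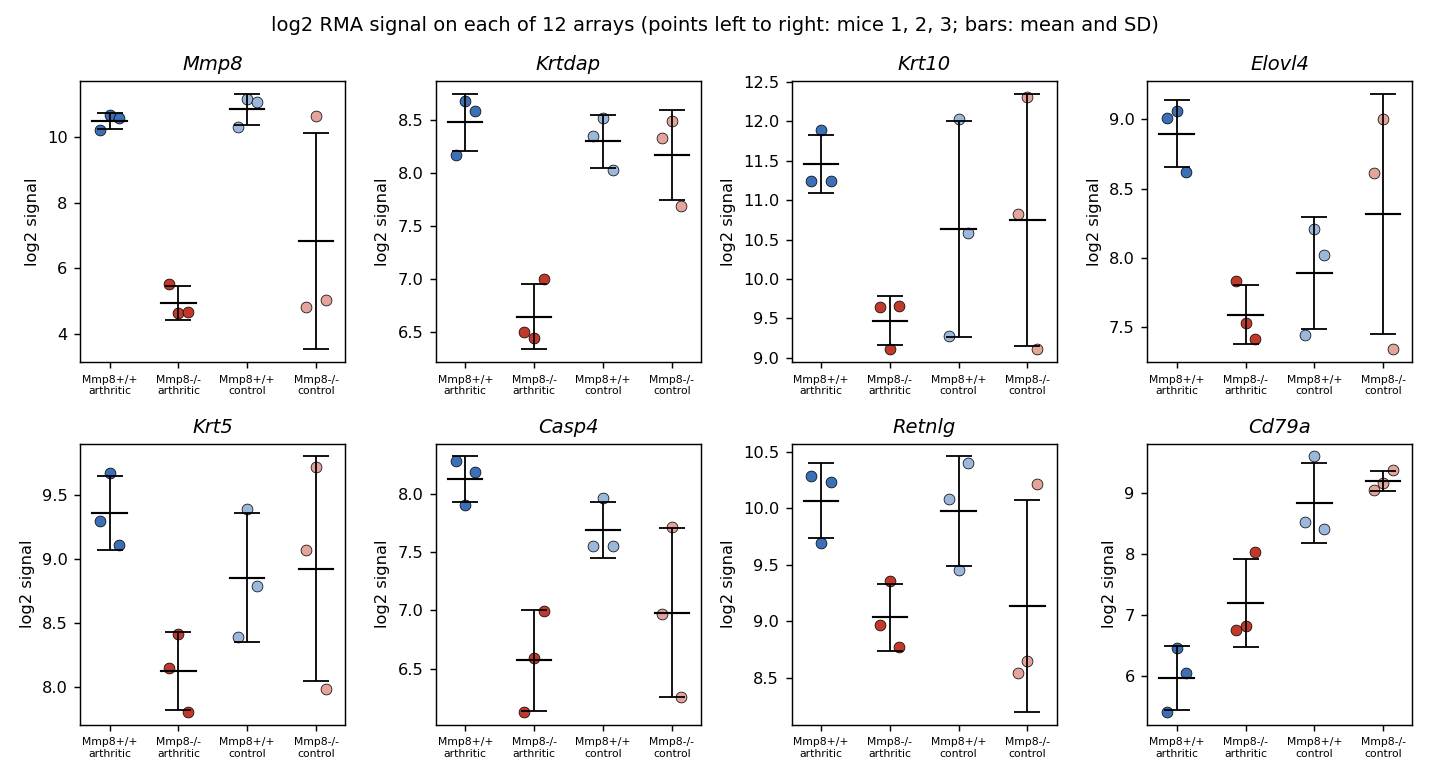
Each panel plots the log2 RMA signal of 1 gene on all 12 arrays by group, with 3 mice per group as points and bars for the mean and SD. Mmp8, Krtdap, Krt10, Elovl4, Krt5, Casp4 and Retnlg of the Mmp8-/- arthritic ankles lie below all Mmp8+/+ arthritic ankles, and Cd79a lies above them.

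The large differences were on the lower side. A difference of at least 2-fold was seen in 37 features lower in Mmp8-/- ankles (0.17% of all) and in 3 features higher (0.0138%). The epidermal lists held 108 of the 21789 features and were chosen with earlier results of these data known. In 34 of the 37 the groups did not overlap, where 3.49% of all features were lower without overlap. The 37 were chosen by their size in these same arrays, which favours groups without overlap. Of the 37, 20 belonged to the epidermal lists, 12 to the suprabasal and cornified list and 8 to the basal list. Several of the other 17 are also known from stratified epithelium: the serpin gene Serpinb5 (-1.50), the cornified envelope genes Lce1c (-1.26) and Kprp (-2.29), the histidase gene Hal (-1.08) and Trim29 (-1.38). All 5 were picked by their values in these data, Serpinb5 and Trim29 through p-values among the 15 smallest and the rest as examples. Mmp8, Casp4, Retnlg and Stfa3 were also among the 17. A difference that rested on 1 array was that of Mrpl42, a mitochondrial ribosome gene, at 6.71, 9.46 and 10.61 in Mmp8-/- ankles and 10.64, 9.87 and 10.66 in Mmp8+/+ ankles. Its groups overlapped.

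**Figure D2:**
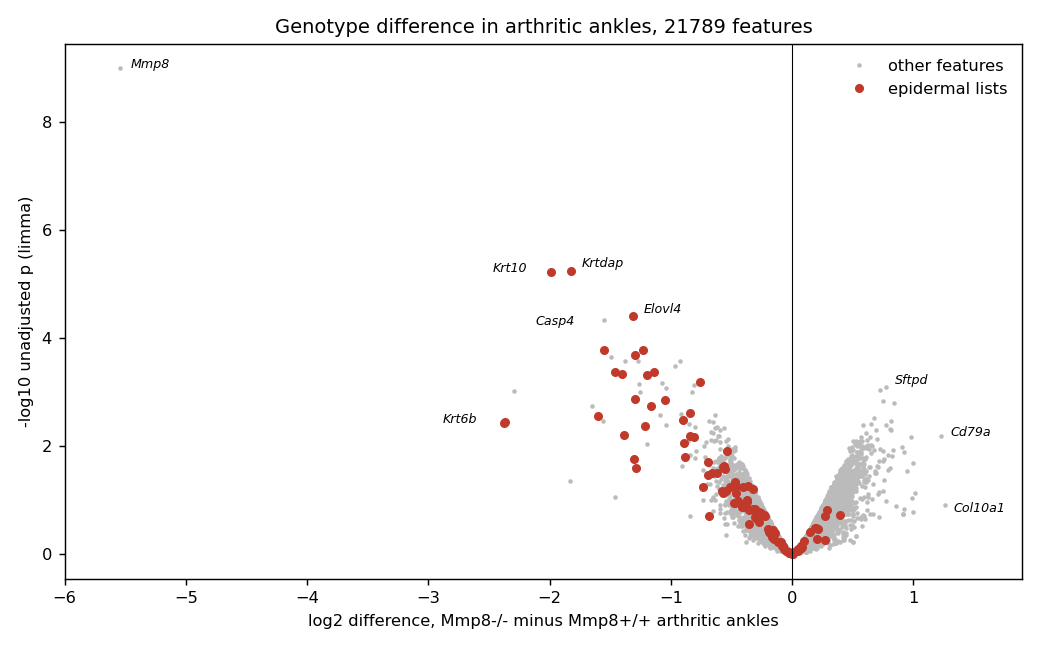
Each point is 1 of 21789 features, with the log2 difference between Mmp8-/- and Mmp8+/+ arthritic ankles on the horizontal axis and -log10 of the unadjusted limma p on the vertical axis. Genes of the 2 epidermal lists are in red, and they make up 20 of the 37 features that were at least 2-fold lower. Those lists were chosen with earlier results of these data known.

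Of the 61 suprabasal and cornified genes, 23 were lower in Mmp8-/- arthritic ankles at an unadjusted p under 0.05 (1.21% of all features were). At that threshold 0 were higher (1.24%). In 20 of the 61 every Mmp8-/- array was below every Mmp8+/+ array, where 3.49% of all features were, and in 0 of the 61 above (3.28% of all features). The median difference of the list was -0.41, beside 0.00 over all features. Elovl4, which makes the very long chain fatty acids of the skin barrier, was at 9.01, 9.06 and 8.62 in Mmp8+/+ ankles and at 7.83, 7.53 and 7.41 in Mmp8-/- ankles. Its difference was -1.31 (SE 0.188), short of the call at a limma adjusted p of 0.195. Klk7, a protease that sheds cornified cells, differed by -1.46 and Krt2, a late suprabasal keratin, by -1.60, both without overlap and neither called. Krt1, the partner keratin of Krt10, had one of the widest spreads. It was at 9.28, 11.63 and 8.58 in Mmp8+/+ ankles and at 7.71, 7.71 and 6.96 in Mmp8-/- ankles, with a difference of -2.37 (SE 0.622) that was -1.47 without Mmp8+/+ mouse 2. Among proteins of the cornified envelope, Hrnr (hornerin) differed by -1.30 (SE 0.458), Lor (loricrin) by -0.57 (SE 0.284) and Ivl (involucrin) by -0.31 (SE 0.225), none of them called and all with overlapping groups.

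Basal keratinocyte genes mostly went the same way with smaller values. Of 47, 34 had a negative and 13 a positive difference (49.7% of all features were negative). Some members differed little, such as Itga6 (-0.16), Col17a1 (-0.14) and Itgb4 (-0.09), and Lama3 was higher (0.15). In 13 of 47 the unadjusted p was under 0.05 with a lower level, in 10 of 47 the groups did not overlap, all lower (1.21% and 3.49% of all features), and the median difference was -0.23. Krt5, the basal keratin, was at 9.30, 9.67 and 9.11 in Mmp8+/+ ankles and at 8.15, 8.42 and 7.81 in Mmp8-/- ankles, a difference of -1.23 (SE 0.211, limma adjusted p = 0.484). Its partner Krt14 differed by -1.40, the desmosome genes Dsp by -1.29 and Dsc3 by -1.19, and Perp, a membrane protein of desmosomes, by -1.16, with no overlap in any of them. Krt6b, a keratin of stressed epidermis, was at 5.40, 8.10 and 5.04 against 3.71, 3.66 and 4.03, again highest in mouse 2. The highest of the 6 values was that of Mmp8+/+ mouse 2 in 62 of the 108 epidermal genes and that of an Mmp8-/- mouse in 24. Without that mouse the median differences were -0.29 for the suprabasal and cornified list and -0.20 for the basal list.

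Krtdap lies on chromosome 7 in a row with 2 other genes of differentiating keratinocytes. Sbsn (suprabasin) and Dmkn (dermokine) are the 2 protein-coding genes before it, and all 3 had lower levels in Mmp8-/- arthritic ankles. Dmkn was at 8.63, 9.26 and 8.62 against 7.81, 6.86 and 7.17, a difference of -1.55 (SE 0.266). Sbsn was at 8.71, 9.26 and 8.58 against 8.02, 7.50 and 7.62, a difference of -1.14 (SE 0.220). Neither passed the FDR (limma adjusted p = 0.484 and 0.613), and neither overlapped between genotypes. Ffar2, the next gene after Krtdap, differed by -0.08. Gapdhs, the gene before Sbsn, was lower without overlap (-0.35). Ffar3 and Ffar1, which follow Ffar2, were higher without overlap (0.32 and 0.39). None of these was called. The 250 bases before the start of the 3 neighbours and of Krt10 are shown because these genes differed together, 5' to 3' on the strand of the gene, from RefSeq on GRCm38.p6: chr7:30751221-30751470 for Sbsn, chr7:30763506-30763755 for Dmkn and chr7:30787655-30787904 for Krtdap, all on the plus strand, and chr11:99389365-99389614 for Krt10 on the minus strand. For Dmkn, which has 3 windows in the table, the first listed was taken. Capitals mark matches to TGANTCA, a loose form of the core bound by AP-1 with any middle base, and to TATAAA, both searched on both strands.
Sbsn: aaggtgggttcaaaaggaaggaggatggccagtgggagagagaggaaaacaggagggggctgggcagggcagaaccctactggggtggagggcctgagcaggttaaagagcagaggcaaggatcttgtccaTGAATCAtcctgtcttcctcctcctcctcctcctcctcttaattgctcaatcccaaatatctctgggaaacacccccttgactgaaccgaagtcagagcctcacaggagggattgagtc
Dmkn: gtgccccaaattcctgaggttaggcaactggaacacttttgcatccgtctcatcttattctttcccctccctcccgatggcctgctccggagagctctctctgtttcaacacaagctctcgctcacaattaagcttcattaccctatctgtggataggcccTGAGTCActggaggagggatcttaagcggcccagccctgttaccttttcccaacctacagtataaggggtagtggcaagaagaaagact
Krtdap: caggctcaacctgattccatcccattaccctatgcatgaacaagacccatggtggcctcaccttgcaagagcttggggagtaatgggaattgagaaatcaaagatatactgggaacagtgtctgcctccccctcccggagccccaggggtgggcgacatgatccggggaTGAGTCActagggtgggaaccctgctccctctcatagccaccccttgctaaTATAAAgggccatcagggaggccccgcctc
Krt10: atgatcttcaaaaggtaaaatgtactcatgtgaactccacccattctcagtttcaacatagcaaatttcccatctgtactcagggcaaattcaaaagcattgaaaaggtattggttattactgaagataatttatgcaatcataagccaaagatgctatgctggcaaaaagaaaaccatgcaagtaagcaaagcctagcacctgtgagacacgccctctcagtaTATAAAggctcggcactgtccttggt
The neighbours Sbsn, Dmkn and Krtdap each held 1 match to TGANTCA, starting 119, 89 and 81 bases before the start, and Krt10 held none. The match read TGAATCA in Sbsn and TGAGTCA in Dmkn and Krtdap. TATAAA was found 30 bases before the start of Krtdap and 26 bases before that of Krt10. Of 27025 genes with such a window, 6.87% held TGANTCA and 13.0% held TATAAA. The matches describe these letters only.

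Ankles without arthritis varied in the level of epidermal genes within each genotype. The mean level of the suprabasal and cornified list was 6.66, 7.15 and 6.62 in Mmp8+/+ arthritic ankles and 6.38, 6.10 and 6.23 in Mmp8-/- arthritic ankles. In control ankles it was 6.10, 7.02 and 6.43 in Mmp8+/+ mice and 6.66, 7.09 and 6.12 in Mmp8-/- mice. The control groups thus overlapped, with a median genotype difference of 0.11 in controls, or -0.08 without the Mmp8-/- array with Mmp8 signal. The first value of each control genotype is from an array with Xist signal. Without these arrays as well, Mmp8+/+ control ankles were at 7.02 and 6.43 and the 1 remaining Mmp8-/- control ankle was at 6.12, below both. With 1 array in a group, a genotype difference in control ankles cannot be judged. The labels do not give the amount of skin on each ankle, and its part in the epidermal differences was not tested. Krtdap was at 8.03 to 8.52 in Mmp8+/+ control ankles and at 7.69 to 8.49 in Mmp8-/- control ankles. These values lay above all 3 Mmp8-/- arthritic ankles. The test of the difference between the genotype effects, in arthritic and in control ankles, gave -1.69 for Krtdap (limma adjusted p = 0.910) and -1.53 without the array with Mmp8 signal (limma adjusted p = 1). For Krt10 it gave -2.11 (limma adjusted p = 1), -1.33 without that array (limma adjusted p = 1) and 0.20 when the control arrays with Xist signal were left out too, so that its sign turned. The control ankles ranged from 9.11 to 12.31 for Krt10. Of the 108 epidermal genes, 15 had a more negative effect in arthritic ankles at an unadjusted p under 0.05 (1.92% of all features) and 2 a more positive one (1.41%). Without the array with Mmp8 signal these counts were 9 (1.69%) and 2 (1.43%). In all, 0 features passed an FDR of 5% in this test by limma (0%), with 727 at an unadjusted p under 0.05.

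**Figure D3:**
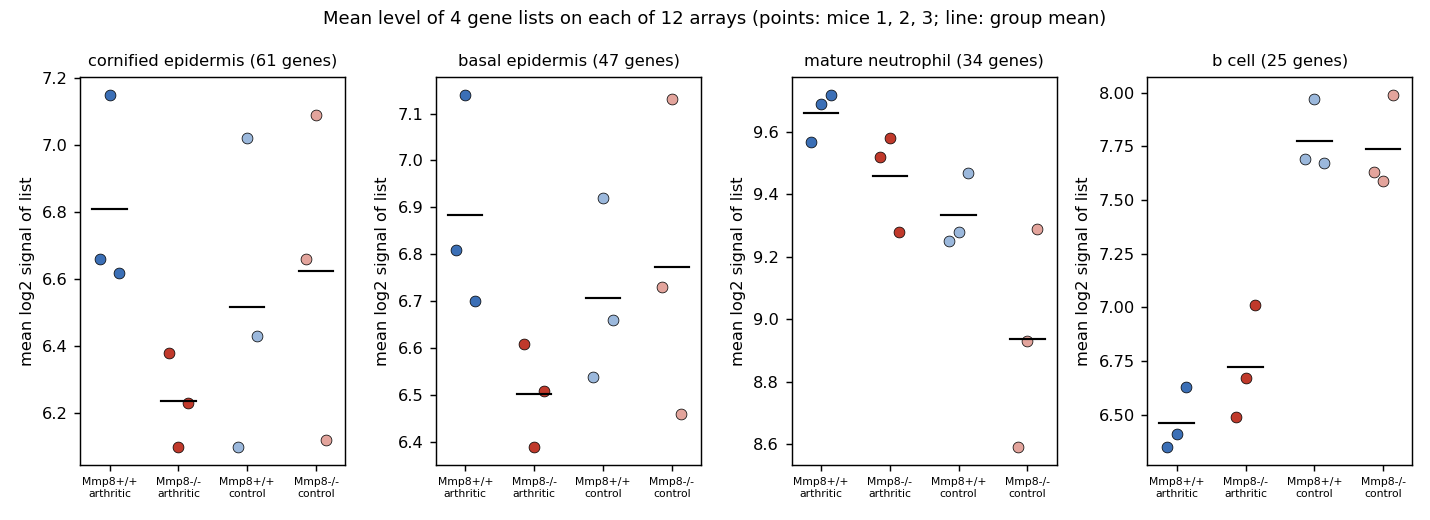
Mean log2 signal of 4 gene lists on each of the 12 arrays, with 1 point per mouse and a line at the group mean. The suprabasal and cornified list lies at 6.10 to 6.38 in Mmp8-/- arthritic ankles, below the 6.62 to 7.15 of Mmp8+/+ arthritic ankles, while the control ankles span 6.10 to 7.09.

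Casp4 was the one gene besides Mmp8, among the 5 smallest p-values, that is in neither epidermal list. It encodes caspase-11, the inflammatory caspase that senses intracellular lipopolysaccharide. Casp4 was at 8.28, 7.90 and 8.18 in Mmp8+/+ arthritic ankles and at 6.13, 6.59 and 6.99 in Mmp8-/- arthritic ankles, a difference of -1.55 (SE 0.227, limma adjusted p = 0.195). In control ankles it was at 7.55, 7.96 and 7.55 in Mmp8+/+ mice, at 6.97 and 6.26 in the Mmp8-/- arrays without Mmp8 signal, and at 7.71 in the one with Mmp8 signal. Its control difference was -0.71 with that array and -1.07 (SE 0.268) without it, with a limma adjusted p of 1 both times. Casp4 therefore had lower values on all 5 arrays of Mmp8-/- ankles that lacked Mmp8 signal than on all 6 Mmp8+/+ arrays.

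Casp4 lies 12 protein-coding genes before Mmp8 on chromosome 9. Of the 40 nearest protein-coding genes, 20 to each side, 38 had a value, 3 were lower in Mmp8-/- arthritic ankles at an unadjusted p under 0.05 (1.21% of all features were) and 0 were higher (1.24%). They were Casp4, Mmp3 and Mmp12. The caspase genes on either side of Casp4 overlapped between genotypes: Casp1 was at 7.28, 6.59 and 7.32 against 6.24, 7.32 and 7.35, and Casp12 differed by -0.40 (SE 0.326). Whether sequence linked to the targeted allele bears on any of these genes was not tested.

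**Figure D4:**
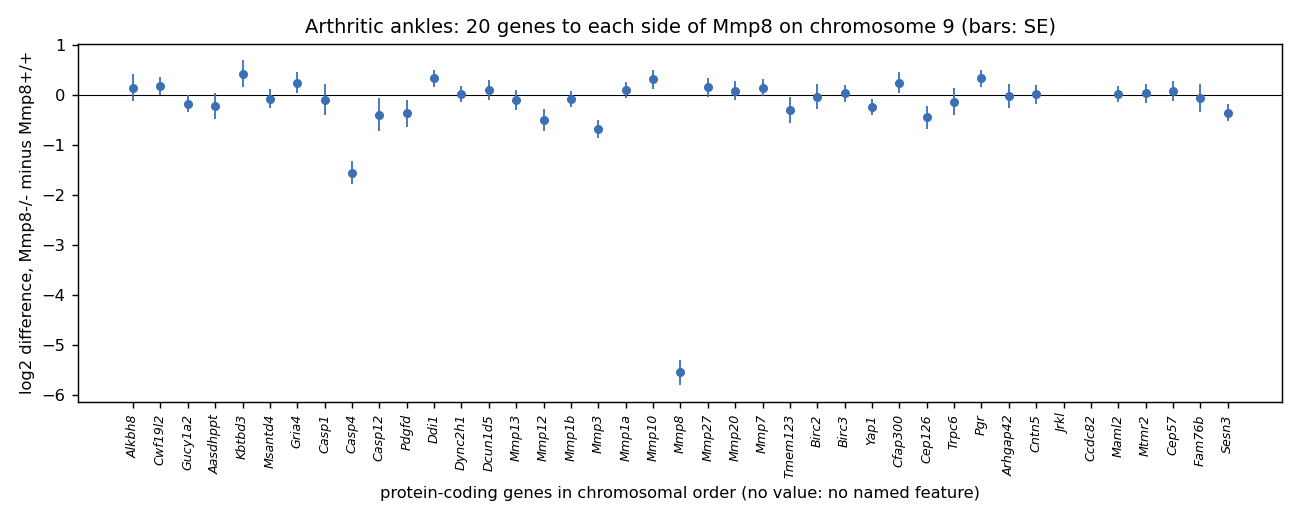
The log2 difference between Mmp8-/- and Mmp8+/+ arthritic ankles, with its SE, is drawn for the 20 protein-coding genes on each side of Mmp8 in their order on chromosome 9. Mmp8 (-5.54) and Casp4 (-1.55) lie apart from the rest, and Mmp3 (-0.68) is next.

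Within the metalloproteinases and their inhibitors, 36 genes were measured, 1 was called (Mmp8), 5 did not overlap and were lower (3.49% of all features were), 1 did not overlap and was higher (3.28%), and the median difference was -0.04. Mmp3, which activates other proteases and cuts matrix proteins, was at 13.04, 12.62 and 12.54 in Mmp8+/+ ankles and at 12.06, 11.98 and 12.11 in Mmp8-/- ankles. Its difference of -0.68 (SE 0.178) had no overlap and did not pass the FDR (limma adjusted p = 1). Mmp12, the macrophage elastase, was at 6.05, 5.83 and 6.09 against 5.14, 5.38 and 5.95, with overlapping groups. In control ankles Mmp12 lay the other way, at 5.99, 6.09 and 5.98 in Mmp8+/+ mice and at 7.40, 6.66 and 7.28 in Mmp8-/- mice, with no overlap. The difference between the effects of Mmp12 was -1.59 (limma adjusted p = 0.910), and -1.81 without the array with Mmp8 signal (limma adjusted p = 0.591). Collagenase-3 (Mmp13), the main other collagenase of the mouse, was at 12.65, 12.53 and 12.24 against 12.05, 12.63 and 12.45, with overlapping groups.

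Of 34 genes of mature neutrophils, 4 did not overlap and were lower (3.49% of all features were), 0 were higher without overlap (3.28%), and 4 were lower at an unadjusted p under 0.05 (1.21%). The median difference of this list was -0.09, and it ran from -0.20 without Mmp8+/+ mouse 1 to -0.01 without Mmp8-/- mouse 3. Retnlg, a resistin-like protein of neutrophils, was at 10.29, 9.69 and 10.23 in Mmp8+/+ ankles and at 8.97, 9.36 and 8.77 in Mmp8-/- ankles, a difference of -1.04 (SE 0.221, limma adjusted p = 0.785). Stfa3, a stefin that inhibits cysteine proteases, differed by -1.65 (SE 0.391) and its relative Stfa2 by -0.56. Of the 34 genes, 24 had a negative and 10 a positive difference (49.7% of all features were negative). S100a8 (-0.15), S100a9 (-0.08) and Ltf (-0.12) differed less, and Camp (0.25) and Cxcr1 (0.34) were higher. Asprv1 (-0.90) is in this list and in the suprabasal list, since it encodes a protease of both. In control ankles Retnlg was at 8.54, 8.65 and 10.22 in Mmp8-/- mice and at 10.08, 9.45 and 10.40 in Mmp8+/+ mice, so that these groups overlapped. The mean level of the neutrophil list was 9.57 to 9.72 in Mmp8+/+ arthritic ankles and 9.28 to 9.58 in Mmp8-/- arthritic ankles. In control ankles the median genotype difference of this list was -0.33, or -0.38 without the Mmp8-/- array with Mmp8 signal. Genes of neutrophil precursors, 19 in all, had a median difference of 0.14, which turned to -0.07 without Mmp8+/+ mouse 1 and was 0.31 without Mmp8+/+ mouse 3. Macrophage genes, 29 in all, had a median of -0.03, which was 0.04 without Mmp8-/- mouse 1. Aif1, a calcium-binding protein of macrophages, was the 1 macrophage gene of 29 whose groups did not overlap (-0.53, SE 0.176). That is about the share over all features, of which 3.49% were lower without overlap.

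Mediators of the arthritis followed. Of 27 genes of the interleukin-1 family and its inflammasomes, 4 were lower at an unadjusted p under 0.05 (1.21% of all features were), with Casp4 first, and 0 higher. Their median was -0.09, and it was 0.03 without Mmp8-/- mouse 1 and -0.23 without Mmp8-/- mouse 2. Il1f6 (-0.58) and Il1f8 (-0.61), interleukin-36 cytokines made by keratinocytes, and Sigirr (-0.39), an inhibitory receptor, were the others. Il1b was at 10.61, 10.24 and 10.42 in Mmp8+/+ ankles and at 10.62, 10.48 and 10.70 in Mmp8-/- ankles, a difference of 0.18 (SE 0.167, limma adjusted p = 1) with overlapping groups. Of 43 other cytokines and acute phase genes, 0 reached an unadjusted p under 0.05 in either direction, and their median was 0.03. Of 47 chemokines and receptors, 2 were higher at that threshold (1.24% of all features were) and 0 lower, and the median was 0.04. Interferon response genes (31, median -0.03), complement and Fc receptors (25, median -0.06) and prostaglandin, leukotriene and pain mediators (27, median -0.06) had medians near that of all features, and in each of these 3 lists and in the cytokines and chemokines the sign of the median turned in at least 1 fit without 1 array. None of these genes but Casp4 was among the 15 smallest p-values of its direction.

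A set of 7 genes had been picked from these arrays for real-time PCR, so that their direction here is not independent evidence. None passed the FDR on the arrays. Mmp3 and Tnn (tenascin-W, -0.37) did not overlap and were lower (3.49% of all features were). Capn6 was at 9.49, 9.13 and 9.68 against 8.77, 9.42 and 8.42, and its groups overlapped. C1qtnf3 (-0.19), Ptx3, the pentraxin of innate immunity (0.26), and Prokr2, a prokineticin receptor (0.32), had overlapping groups. Of 28 measured genes with the most discordant response between genotypes, picked from these same samples, 7 did not overlap and were lower (3.49% of all features were), 0 were higher without overlap (3.28%), and the median difference was -0.20, or -0.12 without Mmp8-/- mouse 3.

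Matrix genes leaned slightly lower. Of 47 non-collagen matrix genes, 38 had a negative difference (49.7% of all features did), 5 did not overlap and were lower (3.49%), and the median was -0.19, or -0.12 without Mmp8-/- mouse 1. Smoc1, a calcium-binding protein of basement membranes, was at 9.99, 10.06 and 9.84 against 9.26, 9.64 and 9.15 (-0.61, SE 0.178, limma adjusted p = 1), and Fbln2 (fibulin-2) differed by -0.37 (SE 0.162). Of 45 collagen and collagen-modifying genes, 34 had a negative difference (49.7% of all features), 4 did not overlap and were lower (3.49%), 1 did not overlap and was higher (3.28%), and the median was -0.12. Without Mmp8-/- mouse 3 the collagen median was -0.02. None was called.

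On the higher side no gene passed the FDR, and the 15 features with the smallest p had low signals, with means from 4.46 to 7.04 beside array medians near 7. Their differences ran from 0.56 to 1.23. In all 15 the groups did not overlap (3.28% of all features were higher without overlap), which a choice by the smallest p in these same arrays favours. Sftpd (surfactant protein D, a collectin of innate immunity) was first, at 4.96, 4.88 and 5.12 in Mmp8+/+ ankles and at 5.59, 5.81 and 5.90 in Mmp8-/- ankles (0.78, SE 0.164, limma adjusted p = 0.785). Rgs1, a regulator of G protein signalling in lymphocytes, followed with 0.73. One of the 15 was a feature of Fam220a (0.81), a gene with 3 features, of which the other two differed by -0.01 and -0.02. B lineage genes held the largest value of the 15. Cd79a, a chain of the B cell receptor, was at 5.41, 6.45 and 6.04 against 6.75, 6.82 and 8.03, a difference of 1.23 (SE 0.358, limma adjusted p = 1). Of 25 B lineage genes, 21 had a positive and 4 a negative difference (49.7% of all features were negative), 4 were higher at an unadjusted p under 0.05 (1.24%), 2 did not overlap and were higher (3.28%), and the median was 0.25. Bank1 (0.79), Pax5 (0.52) and Rag1 (0.52) came after Cd79a. The B lineage median was 0.10 without Mmp8-/- mouse 3 and 0.12 without Mmp8+/+ mouse 1. In control ankles Cd79a was at 8.41 to 9.60 in both genotypes, above all 6 arthritic ankles.

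Other tissues of the ankle varied between mice of 1 genotype. Skeletal muscle genes had a mean level of 7.83, 8.34 and 9.03 in Mmp8+/+ arthritic ankles and of 8.44, 7.87 and 9.12 in Mmp8-/- arthritic ankles, and 0 of 50 reached an unadjusted p under 0.05. Adipocyte genes were at 7.76 to 7.93 against 7.57 to 8.02, with a median of -0.07 (0.02 without Mmp8-/- mouse 1), and erythroid genes at 6.43 to 7.05 against 6.67 to 6.93, with a median of 0.02 (-0.14 without Mmp8+/+ mouse 1). Osteoclast genes had a median of 0.03, which was -0.05 without Mmp8+/+ mouse 3. Osteoblast genes had one of 0.08, which was -0.11 without Mmp8-/- mouse 3 and 0.17 without Mmp8-/- mouse 1. Of 31 chondrocyte genes, 3 did not overlap and were higher (3.28% of all features were) and 1 did not overlap and was lower (3.49%), with a median of 0.19, while the marker of hypertrophic cartilage Col10a1 was at 10.04 in Mmp8-/- mouse 3 and at 6.30 to 6.85 in the other 5 ankles. Without that mouse the chondrocyte median was -0.11. Hair follicle genes were affected by the same mouse: Krt27 was at 8.03 there and at 5.30 to 6.48 in the others, and the list median of 0.14 became -0.01 without it. Schwann cell genes had a median of 0.12, with 4 of 21 higher at an unadjusted p under 0.05 (1.24% of all features were), among them the myelin genes Gjc3 (0.54), Ncmap (0.51) and Mal (0.40), and this median was 0.05 without Mmp8-/- mouse 3 and 0.04 without Mmp8+/+ mouse 3. In no tissue or function list other than that of suprabasal and cornified genes and that of metalloproteinases was a gene called.

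**Figure D5:**
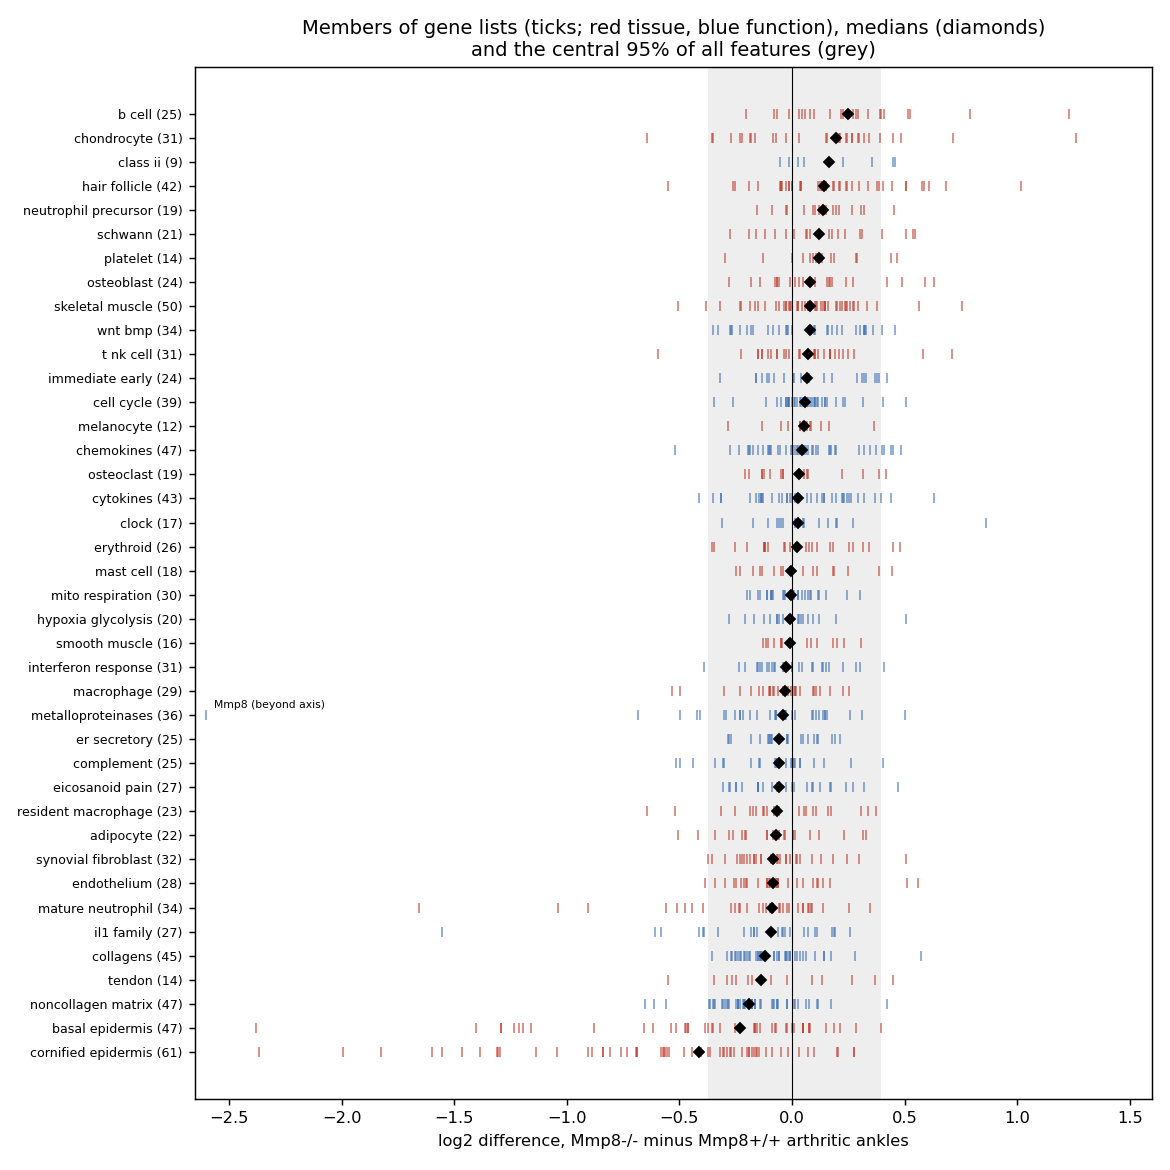
For 40 gene lists, each tick is the log2 difference of 1 gene between Mmp8-/- and Mmp8+/+ arthritic ankles, each diamond the median of the list, and the grey band the central 95% of single features (-0.37 to 0.39), which is a scale for the ticks and not for the medians. The median is -0.41 for the suprabasal and cornified list at the bottom (-0.29 without Mmp8+/+ mouse 2) and 0.25 for the B lineage list at the top (0.10 without Mmp8-/- mouse 3).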

How the data were processed

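Total RNA from ankle joints had been hybridised to Affymetrix Mouse Gene 1.0 ST arrays, 1 mouse per array. The authors deposited log2 values after RMA background correction, quantile normalization and summary per feature; the submitters' processing notes name RMA and Partek. The filter on values below background that the study describes was not applied to the deposited table of 28853 features, and 0 sample columns were left out. Features were named through the platform annotation, with symbols updated through RefSeq (GRCm38.p6): 21789 had 1 symbol, 1621 several and 5443 none. Quantile normalization assumes a common distribution of signals, so that a shift of all genes would not be seen. Differences between the 3 + 3 arthritic arrays were fitted in limma (version 3.58.1, under R 4.3.3; lmFit, eBayes), p-values were adjusted by the Benjamini-Hochberg method over all 21789 features, and the steps were tested on simulated data. The number of arrays, 3 per group, limits the precision. The test of the difference between genotype effects used limma on all 12 arrays. A gene list counted each gene by its feature with the highest mean signal; the rank lists used features. Genes named were Mmp8, every called feature, the 15 smallest p-values in each direction, up to 4 of each list, the chromosome 9 neighbours, the genes measured again by PCR, and defining markers; others are named as examples chosen after their values were seen. Members and gene lists were chosen with earlier results of these data known. Alternatives were other sets of arrays, filters, moderation, weights and normalization, and leaving out each array.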

Additional observations from a re-analysis of the deposited data

Results flagged for a closer look

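One array labelled Mmp8-/- control had an Mmp8 signal of 10.65, beside 4.82 and 5.05 on the other Mmp8-/- control arrays. It takes no part in the comparison of arthritic ankles, and its Mmp8 level was above that of the other arrays of its group.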

How the results depend on the processing

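The count of 3 features called lower became 1 with all 12 arrays, 1 with every feature tested, named or not, 1 after quantile normalization of the named features and 0 with ordinary linear regression without moderation, and it was 1 whichever single arthritic array was left out. It was 2 or 3 under the other settings. The feature that remained was Mmp8, except with all 12 arrays, where it was Krtdap. The count of 0 called higher was 0 under every setting tried. The Mmp8 difference ran from -5.84 to -5.39 over all settings, and at the same -5.54 its adjusted p was 0.780 with all 12 arrays, where the Mmp8-/- control array with Mmp8 signal widens the spread, and 1 with ordinary regression. The cause of the other lost calls was not tested.

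Signs turned in 4 genes that were not called. With array weights Mmp13 was at 0.001 and Casp1 at 0.041. Over the fits that left out 1 array, Mmp13 ran from -0.224 to 0.066, Casp1 from -0.330 to 0.272, Casp12 from -0.618 to 0.035 and C1qtnf3 from -0.425 to 0.030. In the test against control ankles, the Mmp8 value turned to 0.37 without the control array with Mmp8 signal and to 0.53 when the arrays with Xist signal were also left out, and the Krt10 value turned to 0.20 there. The medians of the epidermal lists ran from -0.52 to -0.29 and from -0.26 to -0.18 over all settings. Over the alternatives of all lists, 15 medians moved by more than the SD between mice of the list's mean level, the larger of the 2 arthritic groups, and 750 did not. That SD can exceed the median itself, so the 750 include medians whose sign turned. Examples are those of the chondrocyte list (0.19 to -0.11, SD 0.318) and the hair follicle list (0.14 to -0.01, SD 0.289). No paired analysis was possible because the labels give the mice no numbers shared between genotypes.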
